A study of Mus musculus with 10 samples.

Results

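The clustered protocadherins are a family of cell-surface adhesion proteins of neurons encoded by alpha, beta and gamma gene clusters that lie next to each other on mouse chromosome 18. They were followed here across 10 exon arrays of amygdala RNA. Members were all probe sets of the deposited table whose annotated gene symbol, or every one of several symbols, was Pcdha, Pcdhb, Pcdhga, Pcdhgb or Pcdhgc with a number, or the C-type form of these. The rule used names only and no measured value. It found 319 of the 1256831 probe sets in the table, of which 325444 carry a gene symbol. Of the 319, 265 name 1 gene and cover 48 symbols, and 54 name several genes and cover 17 symbols. Together they hold 57 of the 58 matching genes in the reference gene table, and Pcdhac2 is the gene with no probe set here.

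Each alpha and gamma gene contributes a large variable exon with its own promoter, which encodes the extracellular cadherin repeats and the transmembrane segment, and is spliced to small exons shared by all genes of its cluster. The beta genes are single-exon genes and have no shared exons. A neuron switches on a small, largely random choice of these promoters, with help from the DNA-looping protein CTCF and cohesin, and the isoforms bind only their own kind on neighbouring membranes. This gives neurons a surface identity that is known for self-avoidance of dendrites, for spacing of axons and for the survival of some interneurons. The C-type genes (Pcdhac1, Pcdhac2, Pcdhgc3, Pcdhgc4, Pcdhgc5) are expressed less randomly than the others.

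The study compared mice lacking neuropsin, a secreted serine protease encoded by Klk8 on chromosome 7, with wild-type C57BL/6 mice. The neuropsin-/- mice came from 12 generations of backcrossing to C57BL/6, and all animals were 3 months old. Each of the 5 arrays per genotype was hybridised with RNA combined from 3 animals (15 animals per genotype), which was read as 5 separate pools, so the spread between arrays is the spread between pools. The tissue was the amygdala, cut from a brain slice after perfusion, and GeneChip Mouse Exon arrays were used, where each probe set reads roughly a single exon.

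Values are on the log2 scale, and a difference is knockout minus wild type. A probe set was tested when its mean over the 10 arrays exceeded 4.94, the median over all probe sets. That kept 267 of the 319 members: 217 of the 265 with 1 gene (81.9%) and 50 of the 54 with several (92.6%). By subgroup, 23 of 27 alpha, 128 of 168 beta, 32 of 34 gamma A, 31 of 32 gamma B and 3 of 4 gamma C probe sets with 1 gene were tested. Gene levels are the mean of at least 3 tested probe sets of 1 gene, which was met by 36 members (4 alpha, 20 beta, 5 gamma A and 7 gamma B genes). Of the remaining 12 genes with probe sets of their own, 11 have 1 or 2 tested and Pcdha6 has none. Variable exons of neighbouring genes are near-identical in places, so the assignment of a probe set to 1 of them is uncertain, and the several-gene probe sets name pairs or triples of genes, never a whole cluster, so they cannot be read as the shared exons.

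The arrays did not stand equally close to each other. The first principal component of gene levels held 35.5% of the variance, and wild-type arrays 4 and 5 scored 20.5 and 23.5 on it. Knockout arrays 4 and 5 came next, at 7.45 and 3.14. Arrays 1 to 3 of both genotypes lay between -14.2 and -2.43. Array medians over all probe sets ran from 4.95 to 5.03. Over its 9 probe sets the targeted gene Klk8 averaged 5.17 ± 0.27 on the wild-type and 5.02 ± 0.29 on the knockout arrays (SD, n = 5 each), a difference of -0.15 (exact two-sided permutation test, p = 0.413, with 0.00794 as the smallest p the design allows). The Klk8 difference was -0.39 over its probe sets above the intensity filter (exact permutation p = 0.0476), -0.61 with the median over probe sets (exact permutation p = 0.0794) and -0.04 without knockout array 2 (exact permutation p = 0.841). Which exons were deleted is not in the labels, so the Klk8 probe sets cannot be split into deleted and remaining exons. How far Klk8 was lost is not settled by these values. Among 9 measured neuronal markers, 8 had a higher mean in the knockout (median difference 0.07, summed linear level 8582 to 9281 in wild-type and 9054 to 9688 in knockout arrays). All 8 measured oligodendrocyte markers had a lower mean (median -0.25, summed level 2612 to 4883 and 2742 to 3460). So did 6 of 7 hypothalamic markers (median -0.49), whose summed level was 540.5 to 945.1 and 436.1 to 520.9, without overlap between the genotypes. All 6 striatal markers were lower (median -0.23, summed level 2900 to 3798 and 1904 to 3388). All 9 microglia markers had a lower mean too (median -0.05, summed level 1434 to 1893 and 1491 to 1632). Of 6 choroid plexus and meninges markers 4 were lower (median -0.28, summed level 957.7 to 4501 and 701.9 to 4708). Of the amygdala markers 9 of 10 were measured, with a median difference of -0.11. The part of cell makeup in the differences given below was not tested. In such bulk tissue fewer cells of a type and less RNA per cell cannot be told apart.

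No clustered protocadherin differed between the genotypes past the threshold. None of the 267 tested members had an adjusted p under 0.05 by limma with Benjamini-Hochberg adjustment over all 628415 tested probe sets, where 15 did (0.00239%). None of the 36 genes did either, where 4 of 16367 genes did (0.0244%). The smallest adjusted p was 0.770 for a probe set of Pcdha7 and 0.693 for the gene Pcdhb17. Without adjustment, 13 of the 267 probe sets (4.87%) had a limma p under 0.05, close to the 5.97% of all tested probe sets. All 13 had the higher mean in the knockout, where the background split was 3.33% higher and 2.64% lower. That one-sided split varied with the setting. It was 13 and 0 after quantile normalization again, median centring or a trended and robust prior, and 12 and 0 with array weights. With 1 array left out it ran from 20 and 0 (without knockout array 4) to 10 and 3 (without wild-type array 5). Leaving out wild-type arrays 4 and 5 gave 8 higher and 4 lower. Adjusting for the first component gave 10 and 5, and blocking on replicate number gave 14 and 3. Of the 13, the probe sets 4362729 and 4780347 have wild-type means of 4.40 and 4.79, below the 4.94 needed for testing, so they were tested only through their higher knockout values. Of the probe sets with 1 gene, 9 of 217 did (4.15%), against 4.46% of all tested probe sets with 1 gene name. The other 4 were several-gene probe sets of the gamma cluster. In 2 members, a probe set each of Pcdha7 and Pcdha1, the groups did not overlap (0.922% of 217, against 1.06% of tested probe sets with 1 gene name), in both with the knockout higher (0.696% of that background). No member gene had groups without overlap, against 1.55% of all genes.

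More members had a higher than a lower mean in the knockout. Without wild-type arrays 4 and 5 this share was smaller, and so was that of the background. Of the 217 tested probe sets with 1 gene, 136 had a higher and 81 a lower mean in the knockout (62.7% higher, against 53.8% of all tested probe sets with 1 gene name). Without wild-type arrays 4 and 5, and with knockout arrays 4 and 5 kept, the share was 48.4%, against 42.8%. At gene level 24 of 36 members were higher and 12 lower (66.7%, against 49.3% of all genes), and 47.2% were higher without those arrays, against 34.1%. The median difference over the 36 genes was 0.04, and single genes ran from -0.13 for Pcdhb11 to 0.30 for Pcdhb17. Their standard errors (SE) lay between 0.07 and 0.21. The 95% limits of the gene differences reached from -0.43 (Pcdhb13) to 0.58 (Pcdhb22). The interval of Pcdhb17 (0.04 to 0.57) was the only one of the 36 that left out 0.

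The 11 genes with 1 or 2 tested probe sets have no place among the 36, and with 1 probe set allowed per gene none of them passed either. Their differences ran from -0.13 for Pcdha11 to 0.61 for Pcdha1. Pcdhb1 differed by 0.21 (SE 0.11) and Pcdha3 by 0.18 (SE 0.13), both with overlapping groups.

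The alpha genes hold both probe sets whose groups did not overlap, while their gene levels differed little. Alpha proteins are known on axons, among them those of serotonergic and olfactory neurons. Of the 4 alpha genes with a gene level, Pcdha7 differed by 0.19 (SE 0.11), Pcdha5 by 0.04 (SE 0.08), Pcdha4 by 0.02 (SE 0.08) and Pcdha8 by -0.01 (SE 0.12). Each is below 2 of its SE, and for Pcdha7 the 6 tested probe sets ran from -0.30 to 1.09 with 3 higher and a median of -0.08. The highest of the 6, 4362729, has a wild-type mean of 4.40, below the 4.94 needed for testing. It entered the Pcdha7 gene mean only through its higher knockout values. The Pcdha7 gene difference was -0.15 with the stricter intensity filter. The median over the 23 tested alpha probe sets was 0.02, against 0.00 over all tested probe sets.

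The Pcdha7 probe set 5402504 was at 6.25, 5.30, 6.04, 6.04 and 6.01 on wild-type arrays 1 to 5 and at 6.62, 6.76, 6.54, 6.29 and 6.95 on knockout arrays 1 to 5. All 5 knockout arrays lie above all 5 wild-type arrays, by as little as 0.04 between the highest wild-type and the lowest knockout array. The difference was 0.70 (SE 0.20, limma adjusted p = 0.770). A second probe set of Pcdha7, 4362729, was at 3.37, 4.72, 5.02, 4.67 and 4.23 in wild type and at 6.62, 5.31, 4.95, 5.26 and 5.34 in the knockout. Knockout array 3 lies below the highest wild-type array there, and wild-type array 1 and knockout array 1 lie apart from their groups. It differed by 1.09 (SE 0.34, limma adjusted p = 0.783), and its mean over the arrays, 4.95, is just above the 4.94 needed for testing.

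Pcdha1, the first gene of the alpha cluster, has only 2 tested probe sets and so no gene level in the table of 36. Its probe set 5110619 was at 4.91, 6.71, 6.73, 5.80 and 6.27 in wild type and at 7.02, 6.90, 7.21, 6.98 and 7.10 in the knockout. The knockout arrays are close together and all above the wild-type arrays, which spread over more than a unit, with array 1 lowest. The difference was 0.96 (SE 0.30, limma adjusted p = 0.780). The other Pcdha1 probe set, 5401723, differed by 0.26 (SE 0.23) with overlapping groups. With 1 probe set allowed per gene, Pcdha1 differed by 0.61 (SE 0.21, limma unadjusted p = 0.0134, adjusted p = 0.737).

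The beta genes, single-exon genes that make up most of the members, gave the only gene with an unadjusted p under 0.05. Of 20 beta genes 15 had a higher and 5 a lower mean in the knockout, with a median of 0.09. Pcdhb17 was at 6.69, 6.75, 7.08, 6.25 and 6.58 in wild type and at 7.05, 6.89, 7.08, 6.82 and 7.03 in the knockout. The groups overlap, since wild-type array 3 is as high as the highest knockout array and wild-type array 4 is the lowest of all. The means were 6.67 ± 0.30 and 6.97 ± 0.11 (SD, n = 5 each). The limma difference was 0.30 (SE 0.12, adjusted p = 0.693), and 6.98% of all genes had an unadjusted p under 0.05 as it did. It was 0.20 without wild-type array 4. Without wild-type arrays 4 and 5 the Pcdhb17 difference was 0.13 (limma adjusted p = 0.656). Of its 5 tested probe sets 4 were higher in the knockout, from -0.09 to 0.52.

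Pcdhb18, its neighbour in the cluster, differed by 0.25 (SE 0.13), with 7 of 8 tested probe sets higher, and by 0.12 without wild-type arrays 4 and 5. Pcdhb15 differed by 0.16 (SE 0.09) and Pcdhb2 by 0.11 (SE 0.08). None of these had an adjusted p under 0.05. Pcdhb3 differed by 0.004 (SE 0.09) while its probe set 4677941 differed by 0.45 (SE 0.16), and 3 of its 8 tested probe sets were higher.

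Among beta probe sets, Pcdhb2 5569662 had the smallest p. It was at 6.20, 6.12, 5.97, 5.70 and 5.29 in wild type and at 6.68, 6.73, 6.41, 6.20 and 6.53 in the knockout. Wild-type array 5 is lowest, and wild-type array 1 and knockout array 4 meet at the border of the groups. The difference was 0.65 (SE 0.20, limma adjusted p = 0.770). Pcdhb17 4519279 was at 6.64, 6.69, 6.52, 6.19 and 6.54 in wild type and at 7.00, 6.67, 7.15, 7.04 and 7.04 in the knockout, a difference of 0.46 (SE 0.16, limma adjusted p = 0.800). Knockout array 2 lies within the wild-type range there. Over all 128 tested beta probe sets the differences ran from -0.51 to 0.65 with a median of 0.06, which was 0.02 to 0.12 with 1 array left out.

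The gamma A and gamma B genes, which belong to the cluster known for dendrite self-avoidance, had gene differences between -0.06 and 0.24. Of 5 gamma A genes, 3 were higher and 2 lower. Pcdhga12 differed by 0.14 (SE 0.07), Pcdhga4 by 0.24 (SE 0.14) and Pcdhga10 by 0.13 (SE 0.11). With the stricter intensity filter the Pcdhga12 difference was 0.0066, and with the median over probe sets that of Pcdhga10 was 0.031. With 1 array left out Pcdhga10 ran from 0.056 (without knockout array 5) to 0.19. Pcdhga4 was at 7.23, 7.08, 7.26, 7.10 and 6.49 in wild type and at 7.47, 7.03, 7.39, 7.10 and 7.38 in the knockout. Wild-type array 5 lies well below the other 4 and the groups otherwise overlap. The Pcdhga4 difference was 0.10 without wild-type array 5 and 0.08 without wild-type arrays 4 and 5.

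Of 7 gamma B genes, 3 were higher and 4 lower, with a median of -0.004. Pcdhgb5 had the largest difference of these, 0.18 (SE 0.09), with 5 of 6 tested probe sets higher. It was 0.10 without wild-type array 5, also when wild-type array 4 was left out too, and 0.077 with the stricter intensity filter. Pcdhgb7 differed by -0.05 (SE 0.09), an average of a probe set at 0.43 (5265505, SE 0.19) and 3 lower ones down to -0.35 (4785195, SE 0.19). Pcdhgb4 differed by 0.03 (SE 0.09) and Pcdhgb8 by -0.02 (SE 0.12), with its probe set 4669163 at -0.31 (SE 0.17).

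Pcdhga4 4360440 differed by 0.50 (SE 0.19), Pcdhga12 5323995 by 0.63 (SE 0.30) and Pcdhga10 4327911 by 0.42 (SE 0.21). Pcdhga12 5323995 was at 5.51, 5.33, 5.73, 4.68 and 4.82 in wild type and at 6.24, 6.10, 5.39, 4.98 and 6.50 in the knockout. Wild-type arrays 4 and 5 are lowest, and knockout arrays 3 and 4 lie within the wild-type range. The median over the tested probe sets was 0.09 for gamma A and 0.02 for gamma B. With 1 array left out these medians ran from 0.06 to 0.11 and from -0.05 to 0.10.

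The C-type genes, whose expression is less random, had few probe sets of their own, and none passed the test. Pcdhgc3, known for dendrite arborization of cortical neurons, had 1 tested probe set, at 5.56, 4.30, 5.35, 4.64 and 5.18 in wild type and at 5.32, 5.01, 5.31, 4.89 and 5.61 in the knockout. The groups overlap, and the difference was 0.22 (SE 0.23). Pcdhgc4, known for survival of cortical interneurons, had 2 tested probe sets, with a difference of 0.06 (SE 0.14) over both and -0.06 and 0.17 singly. Pcdhac1 and Pcdhgc5 were measured only through several-gene probe sets, given next.

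Of the 50 tested several-gene probe sets, 31 had a higher and 19 a lower mean in the knockout (62.0%, against 50.3% of all tested probe sets). In the alpha cluster 11 of 22 were higher, with a median of 0.00 and no unadjusted p under 0.05. The probe set named for Pcdhac1 and Pcdha4, 4432928, differed by -0.09 (SE 0.18). The smallest p among the alpha several-gene probe sets belonged to 5561936 (Pcdha6 and Pcdha2), at -0.25 (SE 0.16), then 4683444 (Pcdha6 and Pcdha2) at -0.23 (SE 0.18) and 4618635 (Pcdha2, Pcdha4 and Pcdha6) at 0.21 (SE 0.17).

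In the gamma cluster 20 of 28 were higher, with a median of 0.07, and 4 had an unadjusted limma p under 0.05 (14.3%, beside 5.97% of all tested probe sets). Probe set 4458174, named for Pcdhgc5 and Pcdhga12, was at 6.36, 7.00, 6.53, 6.34 and 6.76 in wild type and at 7.13, 7.33, 6.99, 7.18 and 7.08 in the knockout. Wild-type array 2 and knockout array 3 meet at the border of the groups. The difference was 0.54 (SE 0.17, limma adjusted p = 0.775). Probe set 4780347 of the same label was at 5.62, 4.81, 4.91, 4.58 and 4.04 in wild type and at 5.49, 5.51, 6.29, 5.31 and 5.37 in the knockout, a difference of 0.80 (SE 0.27). Wild-type array 1 is above 4 of the 5 knockout arrays, and wild-type array 5 is the lowest. The other 8 tested probe sets of that label lay between -0.28 and 0.44. The remaining 2 were 5028082 (Pcdhga8 and Pcdhga12), at 0.62 (SE 0.24), and 4975154 (Pcdhga9 and Pcdhga12), at 0.50 (SE 0.22). All 3 probe sets named for Pcdhgc3 and Pcdhga12 lay between -0.27 and 0.01, and all 3 for Pcdhgc4 and Pcdhga12 between -0.09 and -0.02.

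Across arrays the subgroups moved in part together, and wild-type arrays 4 and 5 were low in most of them. Centred on the mean over arrays, the beta probe sets averaged 0.05, -0.02, 0.13, -0.11 and -0.23 on wild-type arrays 1 to 5 and 0.10, 0.04, 0.19, -0.16 and 0.01 on knockout arrays 1 to 5. The lowest beta array was wild-type array 5 and the highest was knockout array 3, with knockout array 4 also low, so the groups overlap. Gamma A averaged -0.03, -0.01, 0.15, -0.13 and -0.21 in wild type and 0.08, 0.08, 0.05, -0.08 and 0.11 in the knockout. Gamma B averaged 0.11, -0.05, 0.14, -0.10 and -0.17 in wild type and 0.07, -0.01, 0.09, -0.15 and 0.06 in the knockout, and in both gamma subgroups arrays 4 of each genotype and wild-type array 5 were low. Alpha averaged -0.08, -0.09, -0.03, -0.17 and 0.09 in wild type and 0.11, 0.06, -0.01, 0.01 and 0.12 in the knockout, so wild-type array 5 is the highest wild-type array there.

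The several-gene probe sets were centred in the same way. Those of the gamma cluster averaged -0.05, -0.01, -0.06, -0.08 and -0.13 in wild type and 0.04, 0.16, 0.17, -0.04 and -0.0006 in the knockout, with wild-type array 5 lowest and knockout array 4 within the wild-type range. Those of the alpha cluster averaged 0.05, 0.05, 0.01, -0.16 and 0.03 in wild type and 0.03, 0.02, 0.13, -0.10 and -0.06 in the knockout, with array 4 of each genotype lowest in its group.

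Counted by gene, wild-type array 5 was the lowest of the 10 arrays in 15 of 36 members (41.7%, against 21.4% of all genes) and wild-type array 4 in 8 (22.2%, against 23.0%). Among the beta genes, wild-type array 5 was lowest in 12 of 20 and knockout array 3 highest in 10 of 20 (50.0%, against 10.2% of all genes). Among the 4 alpha genes it was lowest in 0. The range over the 10 arrays had a median of 0.57 over the 36 genes and 0.48 over all genes.

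Genes linked to the clusters were read from lists, and none of them passed the test in either direction. Beside the counts of each list, 49.3% of all genes had the higher mean in the knockout. All 10 delta protocadherins, relatives outside the clusters, were measured, with 7 higher, 3 lower and a median of 0.04 (-0.0048 to 0.07 with 1 array left out). Pcdh17 differed by 0.13 (SE 0.08), Pcdh7 by 0.07 and Pcdh1 by 0.08. Of 22 chromatin regulators of the clusters 21 were measured, 19 higher and 2 lower, with a median of 0.09 (0.06 to 0.12 with 1 array left out). Dnmt1, the maintenance DNA methyltransferase, differed by 0.16 (SE 0.07, limma adjusted p = 0.711), Smc3, a cohesin subunit, by 0.23 (SE 0.12), and Nipbl, the cohesin loader, by 0.18 (SE 0.09). Centred levels of this list averaged -0.19 on both wild-type array 4 and wild-type array 5, against -0.04 to 0.11 on the other wild-type arrays and -0.002 to 0.08 on the knockout arrays.

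Of 21 intracellular partners and effectors, all measured, 18 were higher and 3 lower, with a median of 0.05 (0.03 to 0.09 with 1 array left out). Ptk2b, the tyrosine kinase PYK2, binds the shared cytoplasmic domain and is inhibited by it. Its highest wild-type array was at 10.14 and its lowest knockout array at 10.17, so the groups do not overlap, as in 1.55% of all genes. The difference was 0.17 (SE 0.07, limma adjusted p = 0.693). Prkca, a protein kinase C that acts downstream of the gamma proteins, differed by 0.13 (SE 0.08), and Rac1, a small GTPase, by -0.11 (SE 0.08). Of 7 proteases that cut the proteins, 5 were measured, 2 higher and 3 lower, with a median of -0.003 (-0.04 to 0.03 with 1 array left out).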

How the data were processed

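The authors deposited log2 values from RMA in Affymetrix Expression Console, 1 for each probe set on each array, per the submitters' processing notes and the labels. Versions of that software and a genome build were not given in the sources used here. No depth exists for arrays, and the 5 arrays per genotype limit the precision. No columns other than those of the 10 arrays were present (0 unmapped). Gene names came from the platform's annotation, and symbols and gene order were checked against the reference gene table.

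The genotypes were compared by lmFit and eBayes of limma (version 3.58.1, R version 4.3.3, tables read with data.table version 1.17.8) without trend, robust prior or covariates, over all probe sets above the intensity filter and over all genes with at least 3 of them. Tests were two-sided, adjusted by the Benjamini-Hochberg method at 0.05. The step was tested on simulated data, with planted shifts larger than any member gene difference and noise independent between arrays. That test does not cover shifts as small as those of the members. Klk8 was compared with an exact permutation test. Alternatives were renormalization, median centring, filters, replicate block, array weights, variance prior, first component as covariate, threshold, gene summary and leaving out arrays. The members and gene lists were chosen with earlier results of these data known. The genes named were the 3 genes of smallest p per subgroup, those holding the 3 probe sets of smallest p, up to 3 several-gene probe sets per cluster, the C-type genes, and the 2 or 3 genes of smallest p per list. Some were named after their values were seen. These are probe sets 5401723, 4975154, 5076863, 4623987, 4687739, 4814118 and 5110912, and the probe sets of Pcdhgc3 or Pcdhgc4 with Pcdhga12. The genes Pcdha3, Pcdha8, Pcdha11, Pcdhb1, Pcdhb11, Pcdhb13, Pcdhb20 and Pcdhb22 were also named in this way.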

Additional observations from a re-analysis of the deposited data

Results flagged for a closer look

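In 9 of 98 groups of 5 arrays (9.18%), the lowest or highest array lay apart from the other 4 by more than 0.71 of the group's whole range. Chance gives this in about 1 in 20 independent groups. The 98 groups overlap, since genes, their own probe sets and subgroup means share values, so the 9.18% cannot be set strictly against that.

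On wild-type array 5, Pcdhga4 was at 6.49 against 7.08 to 7.26 on the other wild-type arrays, and Pcdhgb7 was at 7.88 against 8.06 to 8.12. On wild-type array 2, the Pcdha7 probe set 5402504 was at 5.30 against 6.01 to 6.25, and the Pcdhgb7 probe set 5265505 was at 8.28 against 7.56 to 7.76. The mean of the alpha several-gene probe sets was 7.30 on wild-type array 4 against 7.46 to 7.51.

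On the knockout side, the Pcdha7 probe set 4362729 was at 6.62 on array 1 against 4.95 to 5.34, and the several-gene gamma probe set 4780347 was at 6.29 on array 3 against 5.31 to 5.51. The gamma A mean was 6.75 on knockout array 4 against 6.89 to 6.94, and the mean of the intracellular partners and effectors was 8.81 on knockout array 1 against 8.86 to 8.88.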

How the results depend on the processing

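No member passed an adjusted p of 0.05 under any of the settings run. The count of genes changed (4) was 8 with the first component as a covariate and 2 when a single probe set sufficed, and from 2 to 6 with an array left out. The count of probe sets changed (15) was 3 after quantile normalization again, 2 with no intensity filter, 66 with the stricter filter, 0 with the replicate number as a block, 3 without wild-type arrays 4 and 5, 102 with a trended and robust prior, 32 at a threshold of 0.1, and from 2 to 9 with an array left out. Member genes with an unadjusted p under 0.05 (1) numbered 2 with no filter, 3 with the replicate block, 0 with array weights, 3 with the median over probe sets, 2 when a single probe set sufficed, and from 0 to 4 with an array left out. Probe sets of 1 gene with such a p (9) numbered 15 with no filter and from 6 to 17 with an array left out, and several-gene ones (4) from 2 to 4.

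The median difference of the alpha probe sets was 0.013 to 0.11 with an array left out, that of gamma B was -0.10 without wild-type arrays 4 and 5, and that of gamma C was -0.062 with the stricter filter. Klk8 over its probe sets above the filter differed by -0.39 (exact permutation p = 0.0476). Gene differences that turned sign were Pcdha4 (-0.034 without wild-type arrays 4 and 5, and -0.043 to 0.059 with an array left out), Pcdha5 (-0.050 with the median, -0.015 to 0.073), Pcdha7 (-0.15 with the stricter filter, -0.0014 with the median), Pcdhb15 (-0.0013 with the median), Pcdhb3 (-0.12 with the stricter filter, -0.046 to 0.063), Pcdhgb4 (-0.0057 with the stricter filter, -0.00066 without wild-type arrays 4 and 5, -0.0089 with array weights, -0.013 to 0.088), Pcdhgb7 (0.041 with the median, -0.11 to 0.0050) and Pcdhgb8 (0.31 with no filter, -0.093 to 0.055). The cause was not tested.

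In gene level the arrays correlated with each other at 0.958 to 0.987. After subtraction of each gene's mean within its genotype, same-numbered arrays correlated at 0.282, 0.0817, 0.265, 0.412 and 0.24, so 4 of 5 pairs were over 0.1. Wild-type arrays 1, 3 and 4 correlated best with the knockout array of their own number, and wild-type arrays 2 and 5 with knockout arrays 3 and 4. On arrays 1 to 5 the first component scores were -14.2, -2.54, -13.4, 20.5 and 23.5 in wild type. In the knockout they were -10.3, -2.43, -11.7, 7.45 and 3.14, in a similar order by number. The highest array median of each genotype was on array 4 (5.03 and 5.00). Since 1 pair correlated under 0.1 and the labels name no shared litter or day, the main fit did not take the numbers as pairs. Any step shared by number is not accounted for in the main fit, and whether the numbers mark one was not settled. With the replicate block no gene of the members passed and 3 genes were called in all.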

Other observations

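The 52 members below the intensity filter include Pcdhgb8 probe set 5076863, at 2.32, 4.64, 1.55, 1.75 and 1.69 in wild type and 3.81, 3.77, 4.86, 4.94 and 5.98 in the knockout. Wild-type array 2 lies within the knockout range and the other 4 below it. The level is dim, and with no intensity filter this probe set turned the Pcdhgb8 gene difference to 0.31.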
